A study of Homo sapiens with 9 samples.

Results

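The transcripts described here belong to 38 genes that carry glucose into the cell and break it down: 3 glucose transporters, 16 glycolytic enzymes, 3 PFKFB enzymes, 5 lactate dehydrogenases and monocarboxylate transporters, 6 genes of the pyruvate dehydrogenase step, 4 pentose phosphate enzymes and TXNIP. They were taken by name from a count table of 58734 genes, in which all 38 were found, and 37 passed the filter on low counts. Poly-A selected RNA was sequenced from HEK293T cells, an immortal line of human embryonic kidney origin that expresses the large T antigen of SV40. Cells received 10 nM of a Silencer Select siRNA for 36 h, with 3 libraries each for the SIN3A knockdown, the SIN3B knockdown and the control siRNA, and they carried no other treatment. SIN3A and SIN3B are related scaffold proteins that bring histone deacetylases to chromatin, and the study compared their functions in this line.

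Glucose enters through SLC2A transporters, is trapped by hexokinase and is split by glycolysis into pyruvate. Pyruvate is either reduced to lactate and exported or enters mitochondria through the pyruvate dehydrogenase complex, which PDK kinases switch off. The pentose phosphate pathway branches off near the top and makes NADPH and ribose. Many of these genes are known targets of HIF1 and MYC, and proliferating lines such as HEK293T transcribe them strongly.

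SIN3A stood at 47.3 ± 2.5 CPM (deposited counts scaled to a common library size with TMM factors; SD, n = 3) in SIN3A knockdown cells and 146 ± 4.0 CPM in control cells, so that 32.5% remained. SIN3B stood at 55.1 ± 3.6 CPM in SIN3B knockdown cells and 96.2 ± 4.7 CPM in control cells, so that 57.3% remained. Library totals ran from 22542798 to 27084884 counts. A floor of 3 steps of 4 counts, since nearly all counts were multiples of 4, corresponded to 0.442 to 0.552 CPM and covers counting error only. The SIN3A knockdown libraries lay further apart than the others, with a median SD of 0.195 on the log2 scale over genes, against 0.131 in SIN3B knockdown and 0.134 in control libraries, and replicate 1 stood off on the third principal component. The HEK293 markers VIM, NEFM, NEFL and INA were expressed, at group means of 31.4 to 812 CPM, and PAX2 was at 2.82 to 4.12 CPM. Of these, NEFM and INA fell in both knockdowns and NEFL in the SIN3B knockdown. Of 12 markers of blood, liver, squamous, fibroblast and muscle cells, PTPRC, CD3E, COL1A2 and DCN were at 0 in all 9 libraries, while COL1A1 had means of 23.8 to 31.2 CPM. In bulk RNA, fewer cells that express a gene and less RNA per cell cannot be told apart. Nothing in the labels says that replicates were transfected separately, so the p-values reflect spread among these libraries only, and that spread may be technical.

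Many of these genes fell in the SIN3B knockdown, whereas in the SIN3A knockdown members rose and fell in similar numbers. In the SIN3B knockdown 18 of 37 tested genes fell and 0 rose, against 11.6% and 12.0% of all 16686 genes tested (edgeR quasi-likelihood test, Benjamini-Hochberg adjusted over all genes, threshold 0.05). At an unadjusted p under 0.05, 2 members (PFKFB2 and PDHA1) were higher, and DESeq2 and limma also called 0 rises. Most members are well expressed, and among the 11011 genes of at least 4 CPM with an annotated 3′ UTR the share that fell was 15.3%. The median log2 fold change was -0.19 over the members and -0.02 over all genes. In the SIN3A knockdown 6 members rose and 5 fell, against 12.0% and 10.8% of all genes, with a median of 0.05. The members' shares, 16.2% and 13.5%, lay near the 17.3% and 12.8% of the same 11011 genes of at least 4 CPM. Set directly against each other, 18 members were higher in SIN3A than in SIN3B knockdown cells and 2 were lower, against 14.4% and 12.6% of all genes, with a median of 0.20. The 2 knockdowns share their control libraries, so only the direct comparison bears on how they differ.

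**Figure D1:**
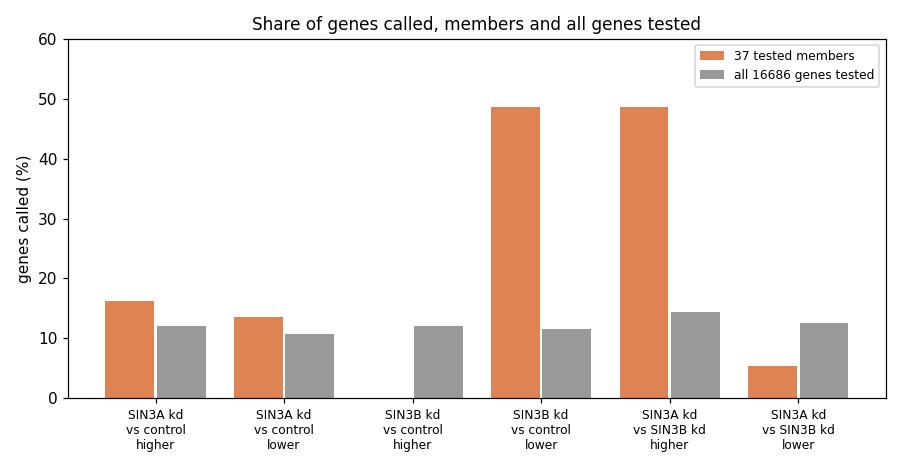
Share of genes called higher or lower (%, bars from 0) among the 37 tested members and among all 16686 genes tested, in each of the 3 comparisons. The members' bars stand at 48.6% for lower in SIN3B knockdown cells and for higher in SIN3A than SIN3B knockdown cells, and between 0 and 16.2% elsewhere.

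The number of falls in the SIN3B knockdown depended on single libraries. It was 9 without control replicate 3, 9 without SIN3B knockdown replicate 2 and 11 without SIN3B knockdown replicate 3. Falls over all genes tested also became fewer, at 7.95%, 7.46% and 7.87% in these 3 fits. The calls for SLC2A1, SLC2A4, ALDOC, GAPDH, ENO2, PFKFB3, PFKFB4, SLC16A9 and PDK1 held in all 15 alternative settings, and the other 9 were lost in at least 2 of them. In the SIN3A knockdown the 6 rises became 2 without control replicate 1 and 9 without SIN3A knockdown replicate 3. Rises over all genes tested were 8.11% and 10.7% in these 2 fits, against 12.0% in the main fit. The falls of ENO2, ENO3 and SLC16A9 and the rise of PDHA1 held in all 15.

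All 3 transporters at the entry of the pathway fell in the SIN3B knockdown. SLC2A1 (GLUT1, the main glucose transporter of proliferating cells; ENSG00000117394, chromosome 1, 42925375 to 42959176, minus strand of GRCh38) had 163, 180.0 and 144 CPM in SIN3A knockdown libraries, 62.0, 55.1 and 54.6 CPM in SIN3B knockdown libraries and 142, 124 and 160.3 CPM in control libraries. Every SIN3B knockdown library lay below every other library, while SIN3A knockdown and control libraries overlapped. Its level was 40.3% of control after SIN3B knockdown (log2 fold change -1.31 ± 0.10, SE; edgeR adjusted p = 3.24e-08) and 0.19 ± 0.10 log2 above control after SIN3A knockdown (edgeR adjusted p = 0.169). The direct difference, 1.50 ± 0.10 in log2 (edgeR adjusted p = 3.14e-09), was the largest positive one among the 37 members.

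SLC2A4 (GLUT4, the insulin-responsive transporter of muscle and fat; chromosome 17, 7281667 to 7288257, plus strand) was scarce. It had 4.23, 4.07 and 3.60 CPM in SIN3A knockdown libraries, 2.45, 1.47 and 1.60 CPM in SIN3B knockdown libraries and 5.72, 5.01 and 6.85 CPM in control libraries. The 3 groups did not overlap. It fell in the SIN3B knockdown by 1.67 ± 0.25 on the log2 scale (edgeR adjusted p = 0.000111), while its value after SIN3A knockdown, -0.56 ± 0.24, did not pass the test. YBX2 overlaps it on the opposite strand at 2.69 CPM, and it is not stated whether counting used strand, so its counts are uncertain.

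SLC2A3 (GLUT3, a high-affinity transporter best known from neurons) fell in both knockdowns. It had 16.0, 17.8 and 14.4 CPM in SIN3A knockdown libraries, 22.8, 17.5 and 15.2 CPM in SIN3B knockdown libraries and 28.8, 19.6 and 30.6 CPM in control libraries. SIN3B knockdown and control libraries overlapped, and the fall there, 0.50 ± 0.16 on the log2 scale, was lost in 6 of 15 settings. Levels were also put as TPM, counts scaled by library total and by the joined length of all annotated exons of a gene. SLC2A1 supplied 90.5% ± 0.17 of the TPM of these 3 transporters in SIN3A knockdown cells, 77.9% ± 2.46 in SIN3B knockdown cells and 84.1% ± 1.32 in control cells (SD, n = 3). Summed, the 3 genes had 183, 202 and 162 CPM in SIN3A knockdown libraries, 87.2, 74.2 and 71.4 CPM in SIN3B knockdown libraries and 176, 149 and 198 CPM in control libraries.

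**Figure D2:**
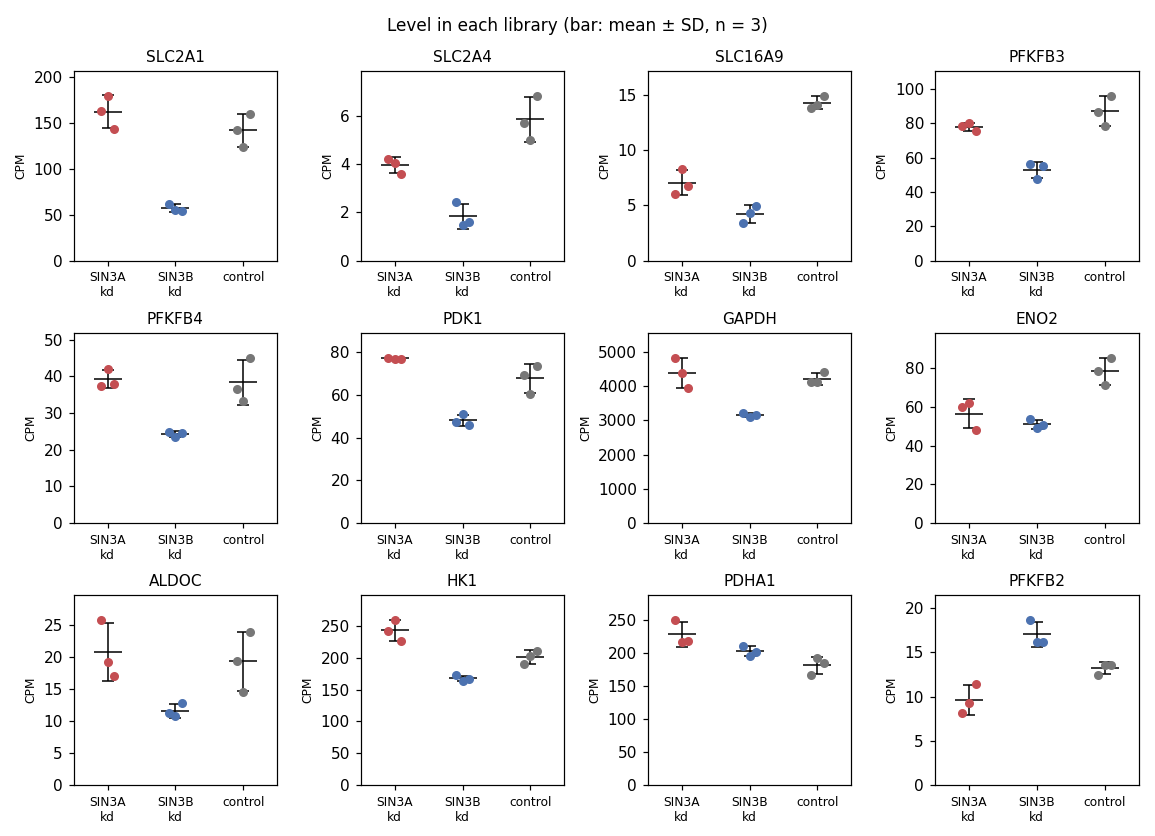
CPM in each of the 9 libraries for 12 members (points), with mean ± SD (n = 3) as black bars and each axis starting at 0. SLC2A1, PFKFB3, PFKFB4, PDK1 and GAPDH are lower in all 3 SIN3B knockdown libraries than in any SIN3A knockdown or control library, SLC16A9 is lower than control in both knockdowns, and PFKFB2 lies below the control libraries after SIN3A knockdown and above them after SIN3B knockdown.

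The promoter windows of SLC2A1, SLC16A9 and PFKFB3, the 3 members with a table entry that had the lowest adjusted p in the SIN3B knockdown, are shown to compare what stands in front of them. Each runs from 250 bases before to 50 after the start (RefSeq, GRCh38.p14). For SLC16A9 and PFKFB3, which have 2 starts each, the window that holds CACGTG is given, and capitals mark CACGTG, the E-box letters that MYC and MAX bind.
SLC2A1, chr1:42958819-42959118, minus strand: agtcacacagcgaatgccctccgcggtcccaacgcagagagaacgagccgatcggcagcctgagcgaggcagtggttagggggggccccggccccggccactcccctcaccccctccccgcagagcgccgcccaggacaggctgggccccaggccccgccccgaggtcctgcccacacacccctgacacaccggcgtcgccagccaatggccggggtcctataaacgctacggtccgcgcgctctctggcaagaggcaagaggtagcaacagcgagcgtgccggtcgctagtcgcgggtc
PFKFB3, chr10:6202682-6202981, plus strand: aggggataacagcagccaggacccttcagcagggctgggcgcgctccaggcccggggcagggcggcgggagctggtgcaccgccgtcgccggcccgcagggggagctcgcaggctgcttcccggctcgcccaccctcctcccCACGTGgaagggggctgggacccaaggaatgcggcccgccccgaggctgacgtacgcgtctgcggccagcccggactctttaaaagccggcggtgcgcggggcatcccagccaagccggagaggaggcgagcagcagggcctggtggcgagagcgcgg
SLC16A9, chr10:59710030-59710329, minus strand: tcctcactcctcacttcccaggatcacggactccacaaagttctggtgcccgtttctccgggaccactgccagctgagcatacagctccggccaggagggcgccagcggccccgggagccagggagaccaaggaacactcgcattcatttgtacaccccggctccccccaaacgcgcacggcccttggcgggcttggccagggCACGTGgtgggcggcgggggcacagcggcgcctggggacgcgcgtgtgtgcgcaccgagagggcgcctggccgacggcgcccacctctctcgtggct
CACGTG stands 108 bases before the PFKFB3 start and 47 before the SLC16A9 start, and the SLC2A1 window holds none. The other PFKFB3 and SLC16A9 windows hold none either. Windows of GAPDH and ALDOC, which fell in the SIN3B knockdown, also hold CACGTG. So do windows of HK2, PDHB, LDHA, ALDOA and PDK2, which were not called there. Over 65 windows of 34 members, 13.8% held CACGTG, 36.9% held ACGTG (the core of hypoxia response elements, also contained in CACGTG) and 69.2% held GGGCGG, the GC box. Both strands were searched. Among all 35116 windows of the table the shares were 7.26%, 21.4% and 45.0%. Some members, such as HK1 and PFKM, have several windows that overlap. The 35116 windows were taken whether or not their genes are expressed in these cells, so the 2 sets are not alike. These are matches of letters, not measured binding.

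Among the glycolytic enzymes the log2 fold changes ran from -0.73 to 0.20 after SIN3B knockdown and from -0.89 to 0.48 after SIN3A knockdown. Of 16 genes, 10 fell and 0 rose in the SIN3B knockdown, against 11.6% and 12.0% of all genes tested. After SIN3A knockdown 2 rose and 2 fell, which is near the 12.0% and 10.8% of all genes. Their CPM summed to 13788, 12850.2 and 11578 in SIN3A knockdown libraries, 10708, 10164 and 10400.8 in SIN3B knockdown libraries and 12257, 12419.5 and 13069.0 in control libraries. All 3 SIN3B knockdown sums lay below the control sums, and the SIN3A knockdown sums spanned them. GAPDH weighed most in these sums, with means of 3161 CPM in SIN3B knockdown and 4224 CPM in control cells.

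HK1, a hexokinase, which traps glucose by phosphorylation, was the only member that rose in 1 knockdown and fell in the other. It had 243, 259.6 and 226 CPM in SIN3A knockdown libraries, 173, 164 and 166 CPM in SIN3B knockdown libraries and 190.2, 203 and 211 CPM in control libraries. The 3 groups did not overlap, and the direct difference was 0.54 ± 0.07 in log2 (edgeR adjusted p = 1.63e-05). Its rise against control (0.27 ± 0.07) was lost with upper-quartile scaling and without control replicate 1, and its fall (-0.26 ± 0.07) without control replicate 3 and without SIN3B knockdown replicate 2. HK2, the other hexokinase listed, passed no test, at 158 ± 12.7 CPM in SIN3A knockdown, 138 ± 10.1 in SIN3B knockdown and 158 ± 33.2 in control cells.

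GPI, which isomerises glucose 6-phosphate, fell by 0.25 ± 0.07 on the log2 scale in the SIN3B knockdown, and of the phosphofructokinases, the committed step of glycolysis, PFKL fell by 0.23 ± 0.07 and PFKP by 0.27 ± 0.09. PFKM was at -0.09 ± 0.08 there and was not called, and SENP1 overlaps it on the opposite strand. In the SIN3A knockdown these 4 genes lay between -0.11 and 0.12 and none passed. PFKL and PFKP were higher in SIN3A than in SIN3B knockdown cells, by 0.35 ± 0.07 and 0.38 ± 0.09.

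The aldolases cleave fructose 1,6-bisphosphate. ALDOC, the brain-type enzyme, had 25.8, 19.2 and 17.1 CPM in SIN3A knockdown libraries, 11.2, 10.8 and 12.8 CPM in SIN3B knockdown libraries and 19.4, 14.6 and 23.9 CPM in control libraries. The SIN3B knockdown libraries were the 3 lowest, and the fall was 0.73 ± 0.17 on the log2 scale (edgeR adjusted p = 0.00426). ALDOA was counted at 37.2 ± 2.41 CPM in SIN3A knockdown, 29.5 ± 5.22 in SIN3B knockdown and 26.8 ± 4.72 in control cells, and rose in the SIN3A knockdown (0.48 ± 0.14, edgeR adjusted p = 0.0158). Its direct difference between the knockdowns, 0.33 ± 0.14, did not pass (edgeR adjusted p = 0.0745). Gene models on the same strand overlap both genes, AC093512.2 at 3.00 CPM for ALDOA and AC005726.1 at 3.62 CPM for ALDOC. Reads shared by such a pair may be missing from the counts of ALDOA and ALDOC, which was not tested. Protein-coding gene models on the same strand also overlap GPI, PGK1, ENO2, PFKFB4 and LDHB, and the same limit applies there.

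GAPDH, which makes the first NADH of the pathway and is often used as a loading control, had 4837, 4392 and 3945 CPM in SIN3A knockdown libraries, 3217, 3105 and 3162 CPM in SIN3B knockdown libraries and 4119, 4122 and 4430.3 CPM in control libraries. After SIN3B knockdown it stood at 74.8% of control (-0.42 ± 0.07, edgeR adjusted p = 0.000155) and after SIN3A knockdown at 0.06 ± 0.07 (edgeR adjusted p = 0.597). Its 62 annotated pseudogenes together held 0.0895% of its own CPM. PGK1, the first ATP-making step, fell by 0.20 ± 0.07 in the SIN3B knockdown, and TPI1, which interconverts the triose phosphates, was at -0.15 ± 0.08 and was not called. TPI1 (0.31 ± 0.08) and PGK1 (0.30 ± 0.07) were both higher in SIN3A than in SIN3B knockdown cells. PGAM1, a mutase, lay within 0.05 of 0 in all 3 comparisons.

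The enolases did not move alike. ENO1, the main form by level, fell by 0.22 ± 0.07 in the SIN3B knockdown and supplied 97.3%, 96.9% and 96.4% of enolase TPM in SIN3A knockdown, SIN3B knockdown and control cells. ENO2, the neuronal enolase, had 59.8, 62.0 and 48.1 CPM in SIN3A knockdown libraries, 53.7, 48.9 and 50.6 CPM in SIN3B knockdown libraries and 78.7, 71.5 and 85.5 CPM in control libraries. Both sets of knockdown libraries lay below all controls, with falls of 0.47 ± 0.10 and 0.62 ± 0.10 on the log2 scale (edgeR adjusted p = 0.00226 and 0.000196). ENO3, the muscle enolase, fell in the SIN3A knockdown to 6.57 ± 1.70 CPM, against 12.2 ± 0.73 CPM in control cells, and was at 14.1 ± 3.08 CPM in SIN3B knockdown cells. Its direct difference was -1.09 ± 0.18 (edgeR adjusted p = 0.00019), but PFN1, at 1334 CPM, overlaps it on the opposite strand. PKM, the pyruvate kinase of proliferating cells, fell by 0.20 ± 0.06 after SIN3B knockdown and was at -0.01 ± 0.06 after SIN3A knockdown.

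**Figure D3:**
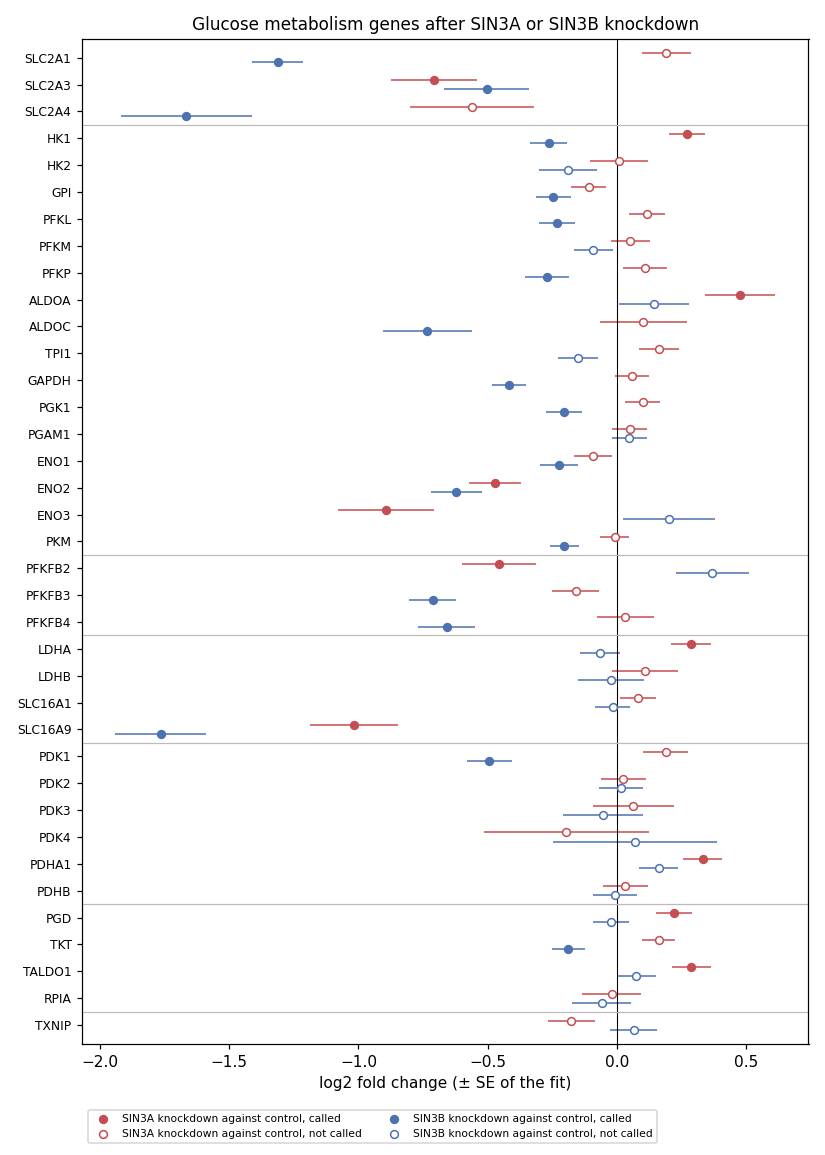
Log2 fold change against control (± SE of the fit) of the 37 tested members after SIN3A knockdown (red, upper of each pair) and SIN3B knockdown (blue, lower), with filled points called at an adjusted p under 0.05 and grey lines between roles. The filled blue points, 18 in all, lie left of 0, and the filled red points lie on either side, 6 right and 5 left.

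PFKFB enzymes set the level of fructose 2,6-bisphosphate, the strongest activator of phosphofructokinase. PFKFB3, the form with the highest ratio of kinase to phosphatase activity, had 78.2, 80.0 and 75.2 CPM in SIN3A knockdown libraries, 56.2, 47.6 and 55.2 CPM in SIN3B knockdown libraries and 86.3, 78.4 and 96.1 CPM in control libraries. It fell in the SIN3B knockdown to 61.0% of control (-0.71 ± 0.09, edgeR adjusted p = 1.96e-05). PFKFB4 had 37.5, 42.1 and 38.1 CPM in SIN3A knockdown libraries, 24.9, 23.4 and 24.5 CPM in SIN3B knockdown libraries and 36.7, 33.4 and 45.1 CPM in control libraries. It fell in the SIN3B knockdown to 63.3% of control (-0.66 ± 0.11, edgeR adjusted p = 0.000307). For both genes SIN3A knockdown and control libraries overlapped.

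PFKFB2, the heart form, was lower in SIN3A than in SIN3B knockdown cells, unlike the other PFKFB genes. It had 8.10, 9.23 and 11.4 CPM in SIN3A knockdown libraries, 18.7, 16.2 and 16.2 CPM in SIN3B knockdown libraries and 12.4, 13.6 and 13.5 CPM in control libraries, and the 3 groups did not overlap. It fell in the SIN3A knockdown by 0.46 ± 0.14 on the log2 scale (edgeR adjusted p = 0.0281), a call lost in 5 of 15 settings. After SIN3B knockdown it stood at 0.37 ± 0.14 (edgeR adjusted p = 0.0646), and the direct difference was -0.82 ± 0.14 (edgeR adjusted p = 0.000246). YOD1 overlaps PFKFB2 on the opposite strand at 60.5 CPM.

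At the lactate step LDHA, which turns pyruvate into lactate, rose in the SIN3A knockdown. It had 1796, 1702 and 1496 CPM in SIN3A knockdown libraries, 1346, 1229 and 1338 CPM in SIN3B knockdown libraries and 1310.4, 1262 and 1521 CPM in control libraries. SIN3A knockdown and control libraries overlapped, and the rise of 0.29 ± 0.08 (edgeR adjusted p = 0.0112) was lost in 5 of 15 settings. Against SIN3B knockdown cells LDHA was higher by 0.35 ± 0.08, with no overlap. LDHB (-0.02 ± 0.13 to 0.13 ± 0.13) and SLC16A1, the lactate carrier MCT1 (-0.02 ± 0.07 to 0.10 ± 0.07), passed no test. Reads shared with AC010197.2, which overlaps LDHB on the same strand, may be missing from the LDHB counts, which was not tested. SLC16A3, the lactate exporter MCT4, was at most 0.47 CPM in any library and was not tested. CSNK1D overlaps SLC16A3 on the opposite strand at 258 CPM, so this low count is uncertain.

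SLC16A9, a relative of the lactate carriers that transports carnitine (ENSG00000165449, chromosome 10, 59650761 to 59736002, minus strand), fell furthest of all members. It had 6.07, 8.29 and 6.74 CPM in SIN3A knockdown libraries, 3.37, 4.28 and 4.96 CPM in SIN3B knockdown libraries and 13.8, 14.1 and 14.9 CPM in control libraries. The 3 groups did not overlap. The fall was 1.02 ± 0.17 on the log2 scale after SIN3A knockdown (edgeR adjusted p = 0.000316) and 1.76 ± 0.18 after SIN3B knockdown (edgeR adjusted p = 1.2e-06). The direct difference between the knockdowns was 0.75 ± 0.18 (edgeR adjusted p = 0.004).

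Where pyruvate enters the mitochondrion, a kinase and a subunit of the dehydrogenase changed. PDK1, a kinase that inactivates the complex, had 77.5, 77.0 and 76.9 CPM in SIN3A knockdown libraries, 47.3, 50.9 and 45.9 CPM in SIN3B knockdown libraries and 69.3, 60.4 and 73.4 CPM in control libraries. It fell in the SIN3B knockdown by 0.49 ± 0.09 on the log2 scale (edgeR adjusted p = 0.000444) and was 0.68 ± 0.09 higher in SIN3A than in SIN3B knockdown cells (edgeR adjusted p = 1.14e-05). PDK2, PDK3 and PDK4 passed no test, with PDK2 within 0.03 of 0 in each comparison and PDK4 imprecise at 1.47 to 3.52 CPM. PDHA1, the catalytic subunit, had 249.5, 216 and 218 CPM in SIN3A knockdown libraries, 209.8, 195 and 202 CPM in SIN3B knockdown libraries and 167, 192 and 184 CPM in control libraries. It rose in the SIN3A knockdown (0.33 ± 0.08, edgeR adjusted p = 0.00392) and was at 0.16 ± 0.08 after SIN3B knockdown (edgeR adjusted p = 0.14). PDHB, its partner, lay between -0.01 and 0.04.

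In the pentose phosphate pathway PGD, which makes NADPH, and TALDO1, a transaldolase, rose in the SIN3A knockdown, by 0.22 ± 0.07 and 0.29 ± 0.08 (edgeR adjusted p = 0.0272 and 0.00965). TKT, a transketolase, fell by 0.19 ± 0.06 in the SIN3B knockdown and was at 0.16 ± 0.06 after SIN3A knockdown, and the direct difference of 0.35 ± 0.06 passed the test (edgeR adjusted p = 0.000368). TKT had 630.5, 610.5 and 555 CPM in SIN3A knockdown libraries, 478, 462 and 469 CPM in SIN3B knockdown libraries and 524, 547 and 535 CPM in control libraries. The 3 groups of TKT values did not overlap. RPIA, an isomerase, passed no test.

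TXNIP, which removes glucose transporters from the cell surface and is induced by glucose, had 29.3, 30.7 and 30.2 CPM in SIN3A knockdown libraries, 35.5, 35.8 and 35.2 CPM in SIN3B knockdown libraries and 32.6, 34.8 and 34.6 CPM in control libraries. The groups did not overlap, yet no comparison passed the test (edgeR adjusted p = 0.183, 0.686 and, between the knockdowns, 0.0582).

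In TPM, tested members ran in control cells from 1.74 ± 0.25 for PDK4 to the level of GAPDH, which was highest at 4378 ± 227 TPM. ENO1 followed at 1742 ± 63.0, TPI1 at 991 ± 14.4, PKM at 795 ± 11.5 and LDHA at 679 ± 75.7 TPM. The joined exon length can exceed that of the transcript expressed, so the order between genes depends on it. In control CPM, PKM (2206 ± 46.3) and LDHA (1364 ± 138) stood above TPI1 (866 ± 20.5). Among the transporters SLC2A1 had 93.1 ± 13.1 TPM, SLC2A3 13.2 ± 3.17 and SLC2A4 4.48 ± 0.76 TPM in control cells. In SIN3B knockdown cells SLC2A1 had 37.4 ± 2.54 TPM, next to ENO2 at 36.9 ± 1.76 TPM, from which it did not differ beyond the spread. In SIN3A knockdown cells SLC2A1 was at 105 ± 10.4 TPM, close to GPI at 111 ± 7.69 and HK1 at 118 ± 7.19 TPM.

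**Figure D4:**
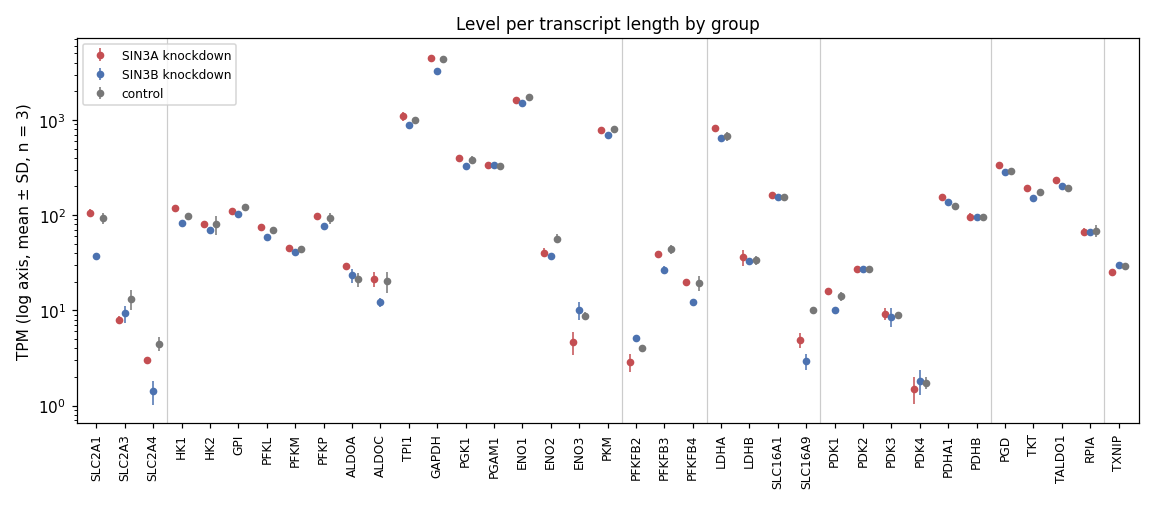
TPM of the 37 tested members (log axis, mean ± SD, n = 3) in SIN3A knockdown, SIN3B knockdown and control cells, with grey lines between roles. GAPDH, ENO1 and TPI1 are highest in all 3 groups, and SLC2A1 stands at 37.4 TPM in SIN3B knockdown cells, against 93.1 TPM in control cells.

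Short matches between an siRNA and a 3′ UTR can lower transcripts other than its target. The siRNA sequences are not given in the sources used here, so all 7-base sequences were ranked, lowest first, after each knockdown. The rank was by the mean difference between genes with and without the sequence, divided by its standard error, not by the difference alone. Log2 fold changes were first adjusted for UTR length and GC content. ACAGCCT and CAGCCTT ranked first and second of 15891 for SIN3B, and GGTCTAA and AGGTCTA for SIN3A. Of 11011 genes, 29.4% held ACAGCCT or CAGCCTT, and of these 22.1% fell in the SIN3B knockdown, against 12.4% of genes with neither. Both sequences were picked from the fold changes of these same genes, so a larger share of falls with them was built in. The calls behind these shares were not adjusted for UTR length or GC content. The sites in members that fell are shown with the matching bases in capitals and 8 flanking bases on each side, with positions counted from the first base of the 3′ UTR (GENCODE 29 transcripts).
SLC16A9 (chromosome 10), UTR bases 513 to 520: cgactaaaACAGCCTTaagaattg
SLC16A9, UTR bases 1314 to 1320: ctgataacACAGCCTggattgag
SLC2A4 (chromosome 17), UTR bases 856 to 862: tgcaggctCAGCCTTccagggca
PFKFB4 (chromosome 3), UTR bases 1116 to 1123: gccgcagcACAGCCTTccattcat
PFKFB4, UTR bases 1621 to 1627: taggactgCAGCCTTtgcttctg
PDK1 (chromosome 2), UTR bases 5634 to 5640: ggcttctgCAGCCTTgcggaact
TKT (chromosome 3), UTR bases 461 to 468: aagtccccACAGCCTTgcagtcag
TKT, UTR bases 567 to 573: agacagggCAGCCTTcgtcctgg
GPI (chromosome 19), UTR bases 1722 to 1728: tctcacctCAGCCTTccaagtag
Of the 37 tested members, 8 held either sequence, and 6 of these fell in the SIN3B knockdown, with a median log2 fold change of -0.37 over the 8. ALDOA and TXNIP held 1 site each and were not called. The ALDOA site was the full ACAGCCTT also found in SLC16A9, PFKFB4 and TKT, and ALDOA was at 0.14 ± 0.14 in log2. Of the 29 members with neither, 12 fell, with a median of -0.09, among them SLC2A1, PFKFB3, GAPDH, ENO2 and ALDOC. For SIN3A, PFKFB2 held GGTCTAA and fell, PFKFB3 and SLC2A4 held 1 site each and were not called, and SLC2A3, SLC16A9, ENO2 and ENO3 fell without one. Of the 11011 genes, 9.16% held GGTCTAA or AGGTCTA. Of these 24.9% fell in the SIN3A knockdown, against 11.6% of genes with neither, a difference likewise built in by the picking. The part of such matches in these changes was not tested.

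**Figure D5:**
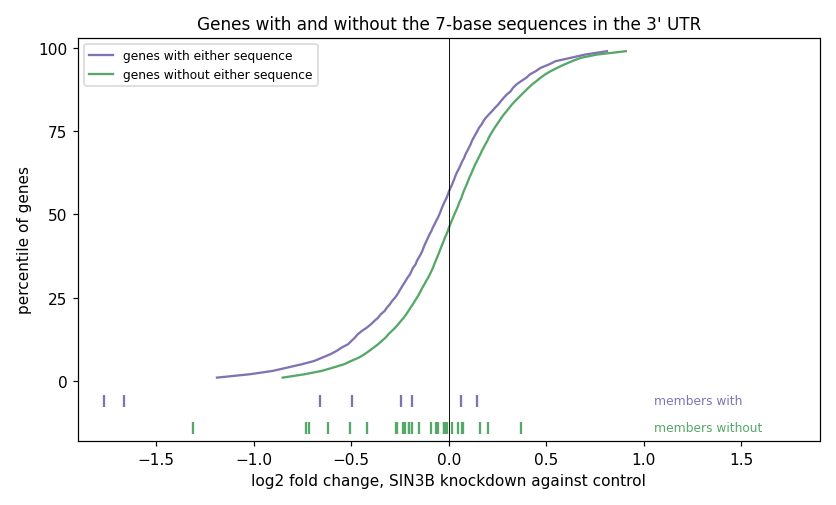
Log2 fold change after SIN3B knockdown against control (x axis) by percentile (y axis) for genes with (violet) and without (green) ACAGCCT or CAGCCTT in the 3′ UTR, 11011 genes in all, with ticks below for the 8 members with and the 29 members without either. The violet line lies left of the green one, a shift built in by picking the sequences from the fold changes of these same genes. Members lower than -0.5 occur in both rows of ticks.

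Of 53 further genes of these pathways, 37 were tested. In the SIN3B knockdown 6 rose and 10 fell, against 12.0% and 11.6% of all genes tested. In the SIN3A knockdown 4 rose and 3 fell, against 12.0% and 10.8%, so these shares were no higher than those of all genes. BSG (basigin, the chaperone that brings MCT1 and MCT4 to the membrane) had the lowest adjusted p in the SIN3B knockdown: it stood at 328 ± 6.47 CPM there, against 711 ± 23.7 CPM in control cells (-1.12 ± 0.07, edgeR adjusted p = 4.08e-09). Its 3′ UTR held 3 matches of the 2 sequences ranked for SIN3B, with overlapping matches counted separately. G6PC3, a glucose 6-phosphatase, fell by 1.21 ± 0.08 on the log2 scale with no match, and SLC2A12, a glucose transporter with 3 matches, by 1.35 ± 0.14, or by 0.83 with limma on log2(FPKM + 1). DLD (0.56 ± 0.08) and PDHX (0.63 ± 0.10), which are subunits of the pyruvate dehydrogenase complex, rose.

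In the SIN3A knockdown DLD (0.35 ± 0.08) and the inositol transporter SLC2A13 (0.70 ± 0.19) rose, the second a call lost without control replicate 1 and without SIN3A knockdown replicate 3. H6PD, a dehydrogenase of the endoplasmic reticulum (-0.90 ± 0.13), the transporter SLC2A10 (-0.98 ± 0.21) and PCK1, an enzyme of glucose synthesis (-1.22 ± 0.28), fell.

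Among 27 regulators of these genes, 26 were tested. In the SIN3B knockdown 8 fell and 2 rose, against 11.6% and 12.0% of all genes tested. MYC fell to 116 ± 3.79 CPM in SIN3B knockdown cells, against 181 ± 11.4 CPM in control cells (-0.64 ± 0.07, edgeR adjusted p = 3.89e-06), and its partner MAX fell by 0.41 ± 0.08, FOXK2 by 0.37 ± 0.07 and the hypoxia factor EPAS1 by 0.61 ± 0.13. The AMP-activated kinase subunits PRKAA1 (1.22 ± 0.17) and PRKAA2 (0.75 ± 0.13) rose. After SIN3A knockdown 8 rose and 4 fell, against 12.0% and 10.8% of all genes tested. HIF1A (0.43 ± 0.09), AKT1 (0.45 ± 0.07) and ESRRA (0.58 ± 0.10) rose there, and ARRDC4, a relative of TXNIP (-0.43 ± 0.11), fell, a call lost without control replicate 3. PRKAA1 (0.63 ± 0.17) was also called there, with 27.05, 30.4 and 52.3 CPM in SIN3A knockdown libraries and 25.7, 23.5 and 21.95 CPM in control libraries. Without SIN3A knockdown replicate 3 its value was 0.28 ± 0.11 (edgeR adjusted p = 0.082), and the call was lost in 5 of 15 settings. Whether these factors take part in the changes of the members was not tested.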

How the data were processed

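Read counts per Ensembl gene and FPKM values for 9 libraries were deposited by the authors; per the submitters' processing notes, Trimmomatic 0.36, HISAT2 2.1.0, HTSeq, DESeq2 1.20.0 and GRCh38 were used. Whether counting used strand is not given in the sources used here. Groups follow the sample titles.

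Counts were tested as deposited in edgeR 4.0.16 (R 4.3.3): TMM scaling, filterByExpr (minimum count 10, minimum total count 15), quasi-likelihood F-test, 1 fit of 9 libraries with 6 residual degrees of freedom, two-sided p-values adjusted by Benjamini-Hochberg within each comparison. TPM was computed from the counts and the joined length of all GENCODE 29 exons of each gene. The lengths behind the deposited FPKM were not used, because they did not track this exon length (Spearman rho 0.00459 over 10858 genes, a correlation across genes). FPKM served only in limma 3.58.1 on log2(FPKM + 1) or log2(FPKM + 0.1). DESeq2 1.42.0, other scalings, filters, 6-library fits, a replicate block and leaving out each library were the other alternatives, and the test was tried on simulated data. Gene names and 3′ UTRs came from GENCODE 29, promoters from RefSeq.

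All 38 members are named. Of the lists of further pathway genes and regulators, at most the 6 with the lowest adjusted p in each knockdown comparison are named, some of which are not reported here, and promoters are shown for at most 4 members. Members and lists were chosen with earlier results of these data known. Same-numbered libraries deviated with correlations of -0.03 to 0.04, so replicate numbers were not taken as pairs.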

Additional observations from a re-analysis of the deposited data

How the results depend on the processing

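Under 15 alternatives, no called member changed direction. Of the calls, 4 of 11 held in all 15 for SIN3A knockdown against control, 9 of 18 for SIN3B knockdown against control and 17 of 20 between the knockdowns, where PKM, PGD and TALDO1 were lost in some. The 6 rises in the SIN3A knockdown became 2 with upper-quartile scaling and 3 with limma on log2(FPKM + 1) or log2(FPKM + 0.1). Rises over all genes tested were 8.03%, 8.76% and 8.72% in these fits, against 12.0% in the main fit. Upper-quartile scaling also moved the split over all genes in that comparison to 1340 higher and 2298 lower, in place of 1997 and 1794. With only the 6 libraries compared, 2 members (PFKFB2 and PDHA1) rose in the SIN3B knockdown in place of 0. Rises over all genes tested were 16.9% in that fit, against 12.0% in the main fit. The cause of the members' change was not tested. With a library left out, 2 to 9 members rose and 4 to 5 fell in the SIN3A knockdown, 0 rose and 9 to 18 fell in the SIN3B knockdown, and 15 to 20 were higher and 2 lower in SIN3A than in SIN3B knockdown cells. With the replicate number as a block, 6 rose and 5 fell, 0 rose and 16 fell, and 17 were higher and 2 lower, in the same order of comparisons; the numbers do not pair the samples. Among members not called, the sign changed under some setting for 14 of 26, 10 of 19 and 6 of 17, and 4, 4 and 5 were called under some setting. SLC16A3 had too few counts to be tested.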
